A study of Mus musculus with 8 samples.

Results

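The regions described here are the ZGLP1 summits that lay in gene deserts of the mouse genome. A summit is the single base the authors placed at the top of a ChIP peak. A summit was counted as a desert summit when it lay outside every protein-coding gene body and over 50 kb from every protein-coding gene start and end. Distances were taken on the GRCm38 (mm10) RefSeq annotation, over chromosomes 1 to 19 and X. The rule used positions only and no peak height. It found 1838 of 32912 summits (5.58%, exact 95% binomial interval 5.34 to 5.84).

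All cells carried a V5-tagged Zglp1 that doxycycline (Dox) switched on, in a C57BL/6 x DBA2 background. The ChIP libraries came from primordial germ cell-like cells (PGCLCs), cultured cells that resemble early germ cells, and from embryonic stem cells (ESCs). PGCLCs received Dox and retinoic acid (RA) or Dox alone from culture day 3 and were taken on culture day 7 (c7) or 8 (c8), sorted for the SC reporter and mCherry. ESCs received Dox and RA for 24 h and were sorted for mCherry. The 5 ChIP libraries, 4 from PGCLCs and 1 from ESCs, were made with an anti-V5 antibody, and 3 input libraries accompanied them. With 1 library per group there were no replicates, and every group expressed the introduced protein, so no untreated control was among them. The deposited list names no library and gives no height or read depth. Nothing could therefore be compared between treatments, days or cell types, and DNA with no listed summit is not shown to be free of ZGLP1.

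Gene deserts are long stretches without protein-coding genes. Many of them flank genes of development and hold enhancers, short regulatory sequences that act on promoters far away. They also hold genes for long noncoding RNAs (lncRNAs), which have promoters of their own. ZGLP1 has zinc fingers like those of the GATA factors, which bind DNA around the letters GATA.

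Sequence was at hand for annotated gene starts, and 40 lncRNA start windows in deserts held a desert summit. Of these 300-base windows, 8 are printed below, each running 5′ to 3′ on the gene's strand from 250 bases before its start to 50 bases after it. They were picked after their values were seen, to show what the DNA at such a summit looks like. The letters are RefSeq's for GRCm38.p6, in lower case, and the capitals mark the 21 bases centred on the summit. Tunar is an lncRNA of pluripotent and neural cells, Platr22 was named as a pluripotency-associated transcript, and Firre is an X-linked lncRNA that takes part in nuclear organization. Celrr has a window without a CG dinucleotide, and 1110002J07Rik is the lncRNA with the most desert summits. The start of 2210408F21Rik lies in one of the deserts with most summits, Gm34507 has the window richest in G and C, and C330002G04Rik is one of those with GATA-type letters.
Tunar start (chr12:105336344-105336643, + strand): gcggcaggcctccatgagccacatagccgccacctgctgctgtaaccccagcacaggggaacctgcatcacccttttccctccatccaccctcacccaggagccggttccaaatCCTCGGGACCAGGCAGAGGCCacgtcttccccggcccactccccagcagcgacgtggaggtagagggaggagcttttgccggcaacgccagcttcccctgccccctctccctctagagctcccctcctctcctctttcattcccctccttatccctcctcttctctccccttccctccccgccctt
Platr22 start (chr1:136695961-136696260, + strand): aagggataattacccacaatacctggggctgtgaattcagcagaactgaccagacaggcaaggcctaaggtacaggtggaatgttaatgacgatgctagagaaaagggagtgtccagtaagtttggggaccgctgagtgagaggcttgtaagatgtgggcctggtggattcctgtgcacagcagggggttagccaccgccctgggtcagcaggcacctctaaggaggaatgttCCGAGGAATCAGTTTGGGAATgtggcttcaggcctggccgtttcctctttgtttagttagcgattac
Firre start (chrX:50635272-50635571, - strand): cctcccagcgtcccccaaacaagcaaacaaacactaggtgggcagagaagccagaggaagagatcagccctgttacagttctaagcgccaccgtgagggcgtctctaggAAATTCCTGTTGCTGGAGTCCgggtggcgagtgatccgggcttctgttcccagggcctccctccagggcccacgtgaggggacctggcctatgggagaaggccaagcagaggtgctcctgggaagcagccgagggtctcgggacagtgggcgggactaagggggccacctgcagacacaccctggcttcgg
Celrr start (chr1:121087155-121087454, + strand): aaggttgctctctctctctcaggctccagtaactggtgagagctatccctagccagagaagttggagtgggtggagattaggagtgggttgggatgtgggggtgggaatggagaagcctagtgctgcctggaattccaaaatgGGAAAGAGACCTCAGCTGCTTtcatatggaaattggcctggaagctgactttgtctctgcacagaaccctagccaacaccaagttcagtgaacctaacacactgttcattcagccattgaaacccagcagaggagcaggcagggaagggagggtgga
1110002J07Rik start (chr10:66920335-66920634, - strand): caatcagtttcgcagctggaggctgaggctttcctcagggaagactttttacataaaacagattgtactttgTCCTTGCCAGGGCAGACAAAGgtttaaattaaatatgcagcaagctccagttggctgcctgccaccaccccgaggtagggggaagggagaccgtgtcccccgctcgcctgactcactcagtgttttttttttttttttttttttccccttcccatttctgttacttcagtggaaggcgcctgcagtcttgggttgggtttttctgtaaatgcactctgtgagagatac
2210408F21Rik start (chr6:31220101-31220400, + strand): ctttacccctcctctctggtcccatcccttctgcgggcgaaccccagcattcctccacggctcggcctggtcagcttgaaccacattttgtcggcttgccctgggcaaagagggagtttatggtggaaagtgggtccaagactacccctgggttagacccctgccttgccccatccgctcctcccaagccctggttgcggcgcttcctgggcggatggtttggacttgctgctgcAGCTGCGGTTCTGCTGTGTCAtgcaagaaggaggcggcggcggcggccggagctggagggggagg
Gm34507 start (chr17:4908072-4908371, + strand): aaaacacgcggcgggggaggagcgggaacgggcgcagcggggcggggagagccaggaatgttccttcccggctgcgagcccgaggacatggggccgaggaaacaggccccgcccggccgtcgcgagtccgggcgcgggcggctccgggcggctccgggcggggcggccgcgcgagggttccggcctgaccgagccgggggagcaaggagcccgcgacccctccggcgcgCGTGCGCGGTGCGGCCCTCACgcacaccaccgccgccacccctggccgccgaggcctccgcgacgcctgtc
C330002G04Rik start (chr19:23075856-23076155, - strand): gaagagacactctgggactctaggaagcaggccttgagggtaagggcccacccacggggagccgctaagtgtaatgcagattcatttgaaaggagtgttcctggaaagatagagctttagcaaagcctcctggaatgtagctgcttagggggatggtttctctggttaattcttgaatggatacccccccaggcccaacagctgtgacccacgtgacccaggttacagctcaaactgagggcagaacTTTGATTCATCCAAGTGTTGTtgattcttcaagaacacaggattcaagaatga

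The printed windows differed widely in base composition. G+C was 79.3% in Gm34507, with 49 CG dinucleotides, and 64.3% in Tunar, 63.3% in 2210408F21Rik and 62.7% in Firre. It was 52.0% in Celrr and Platr22, 49.3% in C330002G04Rik and 47.7% in 1110002J07Rik. The summit stood 5 bases before the start of 2210408F21Rik, 7 before Platr22, 11 before Gm34507, 97 before Celrr, 126 before Tunar, 131 before Firre and 168 before 1110002J07Rik, and it stood 7 bases after the start of C330002G04Rik. The desert of Platr22 lies between Zfp281 and Nr5a2, genes of transcription factors of pluripotent cells, and the summit was 65.8 kb from Zfp281. That of Tunar was 114 kb from Tcl1, a gene highly expressed in mouse ESCs, and that of Firre was 206 kb from Stk26. In Tunar, Gm34507 and 1110002J07Rik another summit lay within 1 kb, at 852, 844 and 628 bases, while the closest to that of Firre was 571 kb away.

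Deserts took up much of the genome and held few of the summits. They covered 952 Mb, 36.4% of the 2612 Mb between the first and last annotated gene of each chromosome. Of the summits within that span 5.48% (5.24 to 5.73) lay in deserts, 0.150 times the desert share of the span. Desert density was 1.89 summits per Mb (exact 95% Poisson interval 1.81 to 1.98), against 18.7 per Mb outside deserts, a ratio of 0.101. On average 1 summit fell in each 0.528 Mb of desert. Intervals cover counting error only and treat summits as independent, which summits close together are not. No test was made here or below, since the rule was set on positions in 1 list and regions are not replicates of a condition.

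Density was lower at greater distance from protein-coding genes, inside the deserts as well as outside them. In intergenic DNA it was 110 summits per Mb within 1 kb of a protein-coding gene, 13.7 at 1 to 10 kb and 7.61 at 10 to 50 kb. Past the 50 kb limit it was 4.12 (3.84 to 4.40) at 50 to 100 kb, 2.53 (2.32 to 2.75) at 100 to 200 kb and 1.08 (0.961 to 1.20) at 200 to 500 kb. It was 0.387 (0.296 to 0.497) at 500 to 1000 kb and 0.394 (0.270 to 0.557) beyond 1000 kb, and these last intervals overlapped. The 50 kb limit thus lay on a slope. Just inside the rule were summits 50014 bases from Disc1 and 50031 bases from Tmco5, and just outside it were summits 49994 bases from Cwc27 and 49974 bases from Tmem132d. The median distance was 109 kb, with an interquartile range of 71.9 to 189 kb. Of the desert summits 54.4% (52.0 to 56.6) lay over 100 kb from every protein-coding gene, 23.6% over 200 kb, 5.06% over 500 kb and 1.74% over 1000 kb.

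**Figure D1:**
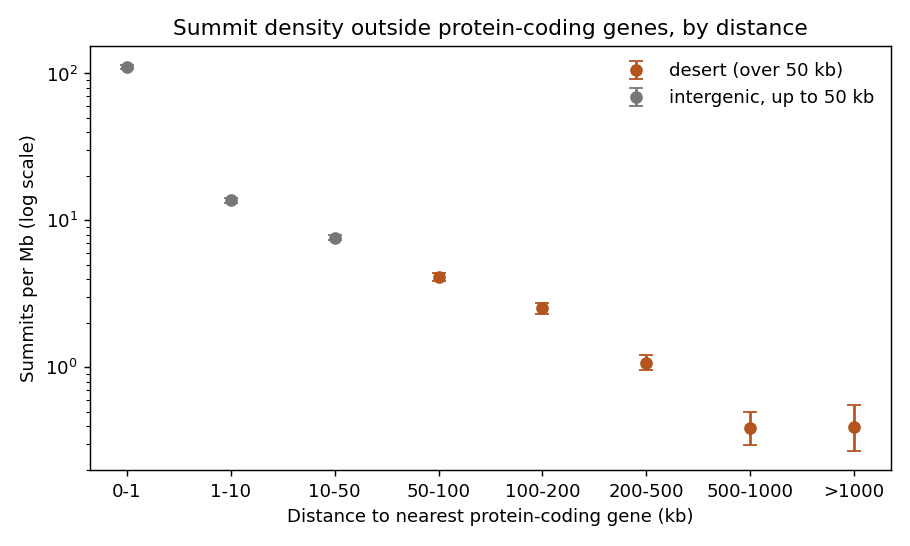
Summits per Mb of intergenic DNA (log scale) by distance to the nearest protein-coding gene in kb, with desert bins and bins up to 50 kb in different colours and exact 95% Poisson intervals as bars. Density goes down at each step as far as 500 to 1000 kb, where it is 0.387 per Mb, and the last bin, 0.394 per Mb, does not differ from it beyond counting error. Of the 32 summits in the last bin, 4 stand in 1 close run near Lrrc4c.

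The 10 desert summits farthest from protein-coding genes stood 1509 to 2138 kb away. The farthest stood 2138 kb from Cntnap5b, close to the middle of the desert between this gene and Cdh20, and it was the only summit there. Next came summits 1878 kb from Pcdh9, 1760 kb from Pcdh7 and 1714 kb from Cntnap5a. Pcdh7 and Pcdh9 encode protocadherins, adhesion proteins of neurons, and Cntnap5a and Cntnap5b encode neuronal proteins related to neurexins. The others of the 10 farthest were 1671 kb from Stim2, in the same desert as the Pcdh7 summit, 1613 kb from Zeb2, 1612 kb from Pcdh10, 1581 kb from Slc39a10, 1547 kb from D3Ertd751e and 1509 kb from Pcdh18. Of these summits the one nearest another annotated gene lay 2110 bases from Gm29739, a pseudogene.

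Long deserts held a summit more often than short ones but held far fewer per Mb. Of 2581 deserts of at least 10 kb, 882 (34.2%, 32.3 to 36.0) held at least 1. The share was 18.6% at 10 to 100 kb, 39.3% at 100 to 500 kb, 48.8% at 500 kb to 1 Mb and 61.0% at 1 Mb or more. Density over the same classes was 5.92 (5.26 to 6.64), 3.54 (3.31 to 3.79), 1.73 (1.55 to 1.91) and 0.683 (0.609 to 0.763) summits per Mb. Since the edges of a desert are near genes by definition and a short desert is mostly edge, this restates the slope with distance in part. Within a desert the lean to the edges was mild. Cut into 5 equal parts from one flank to the other, deserts held 23.6%, 19.3%, 17.4%, 16.6% and 23.0% of their summits.

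**Figure D2:**
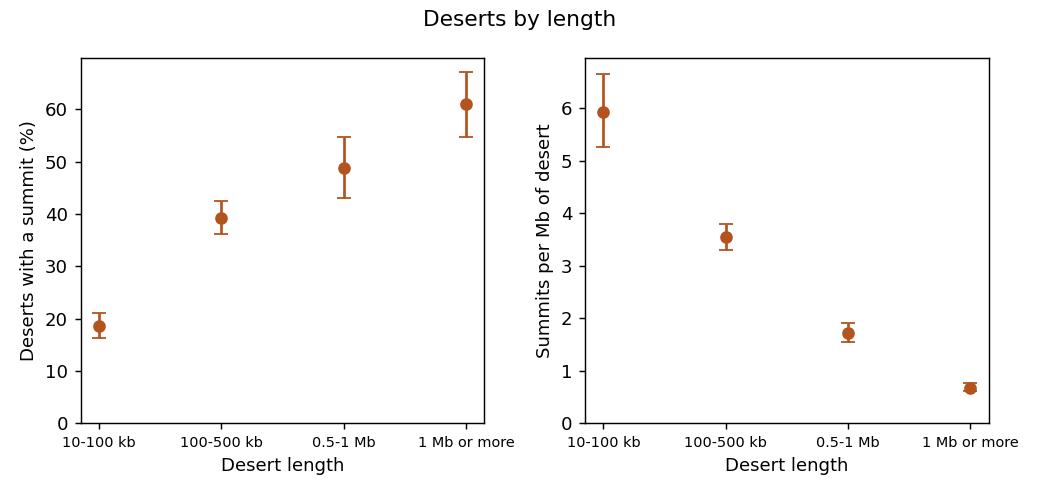
Percent of deserts with at least 1 summit (left; exact 95% binomial intervals) and summits per Mb of desert (right; exact 95% Poisson intervals) in 4 classes of desert length. The percentage goes up from 18.6 to 61.0 and the density goes down from 5.92 to 0.683 over the classes.

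The 5 longest deserts held 11 summits together. Those from Pcdh20 to Pcdh9 (4442 kb) and from Tenm3 to Aga (3889 kb) held 2 each, and those from Olfm4 to Pcdh17 (4320 kb) and from Cntnap5b to Cdh20 (4178 kb) held 1 each. The desert from Celf4 to Pik3c3 (4411 kb) held 5. Over the 20 longest deserts there were 38 summits in 74.3 Mb, 0.512 per Mb, against 1.89 in all deserts.

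A few deserts held many summits. A single summit stood in 492 of the 888 deserts that held any, while 74 deserts had 5 or more and together 26.4% (24.4 to 28.5) of the members. In 8 deserts there were 10 or more. The desert with the most lay between Cd83, a gene of antigen-presenting cells, and Jarid2, which encodes a partner of Polycomb repressive complex 2 (chr13:43853134-44680773). It held 18 summits in 828 kb, 21.7 per Mb, spread from 58.0 to 875 kb from Cd83. Of these, 11 lay inside lncRNA genes, among them A330076C08Rik, Gm34276 and Gm40931.

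Next were the deserts from Tbc1d1 to Gm38457 (chr5:64401487-64752369) and from Opa1 to Hes1 (chr16:29713128-30015356), with 13 summits each. Hes1 encodes a repressor that acts downstream of Notch signals, and Opa1 a mitochondrial fusion protein. At 43.0 and 37.0 summits per Mb, the Hes1 desert and then the Tbc1d1 desert were the densest of the 62 deserts of at least 200 kb with 5 or more. The Hes1 summits ran across the whole desert, from 56.2 to 330 kb from Hes1, and 4 of the 13 lay inside lncRNA genes. The Tbc1d1 desert held a run of 4 summits within 12111 bases, between 149 and 161 kb from Tbc1d1 and at Gm52815, an lncRNA gene.

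Sox2, a core transcription factor of pluripotent cells, flanked a desert with 12 summits (Sox2 to Atp11b, chr3:34702462-35704043). Of them 9 lay between 82.8 and 143 kb beyond Sox2, and the others at 340, 376 and 753 kb. A run of 5 covered 4340 bases, at 104, 105, 106, 108 and 109 kb from Sox2 (chr3:34756927-34761267). A distal enhancer cluster of Sox2 in mouse ESCs, the Sox2 control region, is known to lie on that side of the gene. The position of that cluster was not used here, so its overlap with this run was not measured. No summit lay in the desert on the other side of Sox2, towards Dnajc19, so the 12 were all on the Atp11b side.

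Tbx3, a T-box factor of naive pluripotency, also flanked a desert with 12 summits (Med13l to Tbx3, chr5:118815439-119620533). A group of 5 stood in a run of 11927 bases between 73.5 and 85.4 kb from Tbx3, the closest of them 4791 bases from the noncoding gene AW549542, and the rest were scattered up to 737 kb from it. On the other side of Med13l, which encodes a subunit of the Mediator complex, the desert from Spring1 to Med13l (chr5:118313115-118510329) held 9 summits in 197 kb, none inside an annotated gene. Of these, 4 made a run of 4867 bases, 122 to 127 kb from Med13l.

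The remaining deserts of the 10 with most summits differed in how they were filled. The 10 end in a tie at 9 summits. Plekhb2 to Hs6st1 and Spring1 to Med13l were taken by chromosome order, and other deserts with 9, such as Zfp516 to Tshz1, were left out. Nphp4 to Ajap1 (chr4:152613185-153323220) had 11 summits in 710 kb, spaced out from 62.7 to 671 kb from Nphp4. Cstad to 1700001O22Rik (chr2:30658946-30745562) had 10 in only 86.6 kb, and 7 of them fell in a run of 18084 bases at the lncRNA gene Gm14488. Klf14 to Mkln1 (chr6:31008991-31348827) had 10, of which 4 lay inside Lncpint, an lncRNA induced by p53. A further 3 lay 9500 to 13524 bases from Mir29a, which gives rise to miR-29a. Plekhb2 to Hs6st1 (chr1:34929586-36018399) had 9, of which 6 lay within 229 kb of Hs6st1, a heparan sulfate sulfotransferase gene. Of all 117 summits in these 10 deserts, 35 (29.9%, 21.8 to 39.1) lay inside a noncoding gene, with the counts highest in Cd83 to Jarid2 (11 of 18) and Klf14 to Mkln1 (6 of 10). The total was near the share over all desert summits, 477 of 1838 (26.0%, 24.0 to 28.0).

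By density the 5 leading deserts also included Tfap2c to Bmp7 (chr2:172608623-172818011), with 7 summits or 33.4 per Mb, and Ubl3 to Katnal1 (chr5:148602880-148821583), with 6 or 27.4 per Mb. Tfap2c encodes a transcription factor needed for primordial germ cells, and Bmp7 a BMP ligand. The 7 summits lay at 65.2, 85.4, 141, 154, 170, 175 and 200 kb from Tfap2c, none inside an annotated gene.

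**Figure D3:**
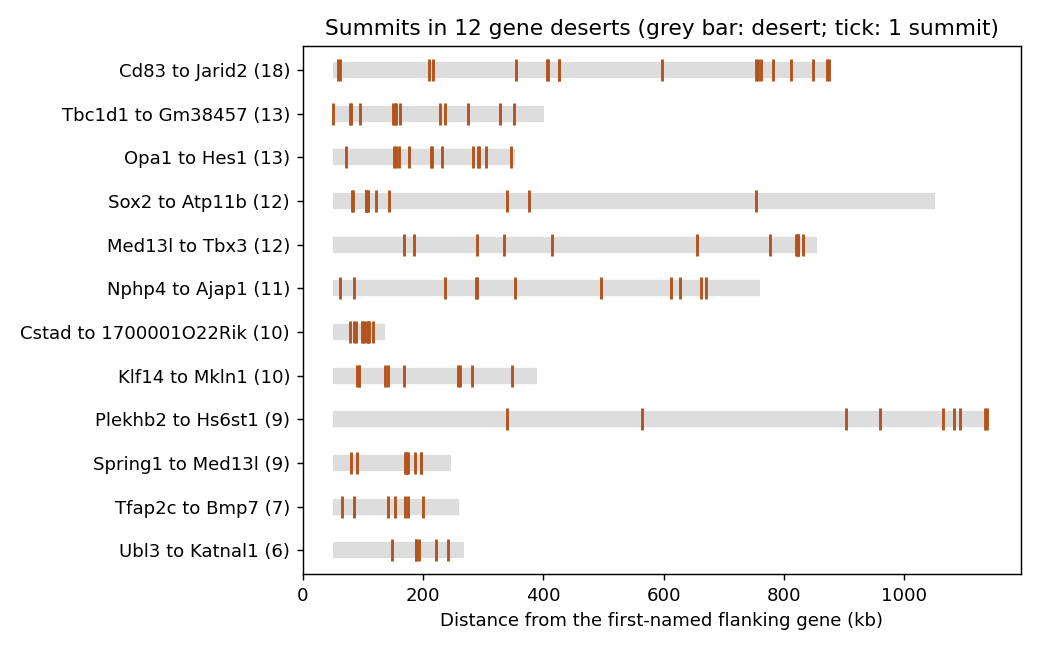
Maps of the 10 deserts with most summits and the 2 further deserts among the densest, with distance in kb from the first-named flanking gene on the horizontal axis, the desert as a grey bar and each summit as a tick. Summit numbers are in brackets, from 18 down to 6, and ties at 9 were cut by chromosome order. Groups of ticks close together stand in Sox2 to Atp11b, Med13l to Tbx3 and Cstad to 1700001O22Rik, while those of Nphp4 to Ajap1 are spread out.

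Desert summits were farther from each other than summits elsewhere. The median distance to the nearest summit of any kind was 45.4 kb, against 11.6 kb for intergenic summits 10 to 50 kb from genes and 4.01 kb for all summits outside deserts. A neighbour within 1 kb was found for 8.16% (6.95 to 9.51) of desert summits, 10.9% (9.78 to 12.1) at 10 to 50 kb and 29.8% outside deserts. Within 10 kb the shares were 25.6%, 45.7% and 64.7%. Lower density alone makes distances longer, and no comparison with randomly placed summits was made.

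When desert summits within 10 kb of each other were joined, they made 1562 runs. Of these, 1381 were single summits, 139 had 2, 24 had 3 and 18 had 4 or more. Together 24.9% (22.9 to 26.9) of desert summits had another within 10 kb, against 40.8% for the class at 10 to 50 kb. The run with the most was at the very start of chromosome 9, from 3000461 to 3038082, where 31 summits stood a mean of 1254 bases apart, before the first annotated gene, Mir101c. The nearest protein-coding gene, Alkbh8, was 297 kb away. Without this run the share with a neighbour within 10 kb was 23.6%, and that within 1 kb was 6.92%. In all, 36 members lay outside the annotated span of their chromosome, and they are not in the densities per Mb. They were the 31 of this run, 4 on chromosome 18 and 1 on chromosome 19. The 4 on chromosome 18 also lay close together before its first annotated gene, from 3005110 to 3010958.

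Besides the runs in the deserts of Cstad, Sox2, Tbx3, Tbc1d1 and Spring1, 4 more were among the 10 with most summits. One had 6 in 9494 bases at the lncRNA gene 1110002J07Rik, and its summits came within 88.0 kb of Reep3. Another had 5 in 3473 bases, 114 kb from Gm2244 (chr14:19415883-19419356). The others had 4 each, in 4161 bases 1031 kb from Lrrc4c (chr2:98662672-98666833) and in 22594 bases 58.1 kb from Fam53a. There were 18 runs with 4 or more, so the 10 end in a tie at 4 that was cut by chromosome order. The runs near Gm2244 and Lrrc4c and at the start of chromosome 9 each lay outside annotated genes, with summits 868 to 1387 bases apart on average. No source used here says how reads that match several places were treated. Whether these 3 runs, or the 4 summits at the start of chromosome 18, come from such reads was not tested. The 3 runs include the summit near Mir101c and 4 of the 5 summits in the deserts of Lrrc4c. Those 4 are also among the 32 summits counted beyond 1000 kb from protein-coding genes.

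The X chromosome had hardly any desert summits. Its deserts held 7, 0.0898 per Mb (0.0361 to 0.185), against 2.05 per Mb in autosomal deserts, a ratio of 0.0437. Outside deserts the ratio of X to autosomes was 0.181. X gave 0.381% (0.153 to 0.783) of desert summits and 8.19% of desert span, and it gave 1.06% (0.948 to 1.18) of the summits outside deserts. Among the 7, one stood 131 bases from the start of Firre and another 1331 bases from an end of Gm30649, both lncRNA genes. The others were in the deserts H2al1n to Cypt1, Dipk2b to Tex13c3, Rab39b to Pls3, Zxdb to Spin4 and Cldn34c4 to Diaph2, 95.8 to 1111 kb from the nearest protein-coding gene. Among autosomes desert density went from 1.21 per Mb on chromosome 14 to 3.24 on chromosome 13, where 11.0% of all summits were desert summits.

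Desert summits gathered at the ends of noncoding genes. Of the members, 215 (11.7%, 10.3 to 13.3) lay within 1 kb of an end of a gene of another kind, while such DNA made up 2.86% of desert span, a ratio of 4.10. For summits 10 to 50 kb from protein-coding genes the share was 16.1% (14.8 to 17.5). lncRNA genes made up most of it, with 179 summits (9.74%, 8.42 to 11.2) near their ends and 1.44% of desert span. Inside lncRNA genes lay 24.2% (22.2 to 26.2) of desert summits and 10.7% of desert span. Pseudogenes stood closer to their share of span, with 1.63% (1.10 to 2.32) of summits and 1.05% of span near their ends. Even so, 70.0% (67.8 to 72.1) of the members were neither inside nor within 1 kb of any annotated gene, and 19.6% (17.8 to 21.5) lay over 50 kb from every one. The tables used here give gene starts and ends but no exons, so exonic and intronic summits were not told apart.

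The noncoding gene with the most desert summits was 1110002J07Rik, 8.20 kb long, with 6 inside it or within 1 kb. The lncRNA genes with 5 each were Gm31615, Gm34032, Lncenc1 and Morrbid. Lncenc1 is an lncRNA of naive ESCs, and Morrbid lies far from Bcl2l11, an apoptosis gene it acts on in myeloid cells. A930011G23Rik, Gm14488, Gm32611, Gm36743 and Lncpint had 4 each. Long genes can collect more summits, and these spanned 8.04 kb (Gm14488) to 432 kb (A930011G23Rik). In all, 485 noncoding genes had at least 1.

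Small RNA genes had few. A desert summit lay 18 bases from an end of the tRNA gene n-TEttc7, inside it, and another 42 bases from n-TNgtt9. Of microRNA genes, Mir101c had one at 587 bases, Mir5127 at 861 and Mir205, which encodes an epithelial microRNA, at 879. Among snoRNA genes Gm23234 had one at 593 bases. The Mir101c summit belongs to the run at the start of chromosome 9. For tRNA genes 2 of 1838 desert summits (0.109%, 0.0132 to 0.393) lay within 1 kb of an end, against 75 (2.59%, 2.04 to 3.24) of those 10 to 50 kb from protein-coding genes. Such DNA was also scarce in deserts, at 0.0139% of desert span for tRNA genes. For microRNA genes the share was 0.163% (0.0337 to 0.476) of desert summits and 0.0310% of span. For snoRNA genes it was 0.0544% (0.00138 to 0.303) of desert summits and 0.117% of span.

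Where the strand of an lncRNA was known, summits were denser at its start than at its end or farther out. There were 2595 desert lncRNA genes over 2 kb long with a start in the promoter table. Of these, 99 (3.82%, 3.11 to 4.63) had a summit within 1 kb of the start and 38 (1.46%, 1.04 to 2.00) within 1 kb of the end, with 3 in both counts. These counts took all listed summits, in deserts or not. Among desert summits by position, the 500 bases after a start held 52, 104 per kb of bin over all starts. The 500 bases before it held 34, or 68.0 per kb. From 1 to 5 kb away on either side it was 17.0 to 21.0 per kb. None of the 84 desert summits on chromosome 18 was among those within 5 kb of a start. The start windows thus do not seem to cover that chromosome, and the values for lncRNA starts leave it out.

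**Figure D4:**
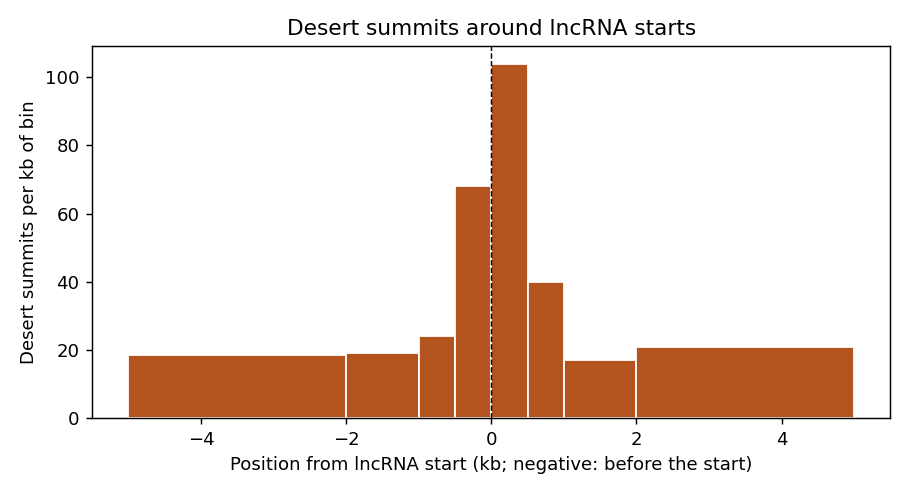
Desert summits per kb of bin by their position from the nearest lncRNA start in kb, negative before the start, over 273 desert summits within 5 kb of one. The bins on either side of the start stand highest, at 104 and 68.0 per kb, over a level near 20 farther out. None of the 273 lies on chromosome 18.

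Few desert lncRNA starts carried a summit. A window of 250 bases before to 50 after the start held one in 39 of 2797 desert lncRNA genes (1.39%, 0.993 to 1.9), against 10.5% (9.78 to 11.3) of other lncRNA genes and 28.7% (28.1 to 29.4) of protein-coding genes. The protein-coding share is over the 17274 genes with a start window, of 21631 annotated. The 40 windows with a summit, which include those printed above, had a median G+C of 56.7% and a median CpG observed over expected of 0.456. The 3235 desert lncRNA windows with no summit within 1 kb of the start had 45.3% and 0.196. Protein-coding windows with a summit stood higher than both, at 63.0% and 0.814. The 40 ranged widely, from 44.7% to 79.3% G+C and from 0 to 49 CG dinucleotides.

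GATA-type letters were looked for on both strands of these windows. The motif that opens with A was taken as AGATAA or, with the other purine last, as AGATAG. The motif that opens with T was taken as TGATAA or, with the other purine last, as TGATAG. Such letters were in 10 of the 40 windows with a summit (25%, 12.7 to 41.2) and in 29.6% of all windows in the table. They were in 44.9% (43.1 to 46.6) of desert lncRNA windows with no summit within 1 kb of the start. A pair of the 40 windows belongs to 1 gene, C330002G04Rik, lies 1 base apart and shares its summit and letters, so by gene the count was 9 of 39 (23.1%, 11.1 to 39.3). The genes Gm14321 and Gm32287 also share a summit, in overlapping windows on opposite strands. The 40 windows thus held 38 distinct summits, and the interval by gene still treats these 39 genes as independent. Of protein-coding windows, 13.9% of those with a summit held such letters, and 37.8% of those with no summit within 1 kb of the start. These letters are rich in A and T, and windows with a summit had more G and C in both classes. Whether base composition accounts for the lower shares was not tested. In C330002G04Rik, printed above, they begin at base 107 of the window, and the summit stands at base 258. A match is a description of the letters and says nothing of what binds them, and other sequence at desert summits was not analysed here.

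Genes that flank deserts were then grouped by function. Of 4514 protein-coding genes next to a desert, 1639 (36.3%) had at least 1 summit in an adjoining desert. Since longer deserts hold a summit more often, the density in the adjoining deserts is given too. Over all deserts it was 1.89 per Mb. Density also depends on length, from 5.92 per Mb in deserts of 10 to 100 kb to 0.683 in those of at least 1 Mb. Neither measure is thus free of desert length. All 10 lists were chosen with earlier results of these data known, and genes that share a desert share its summits. The median flanking gene had 0 summits.

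The lists of pluripotency, germ cell and BMP genes are small and overlap, and their counts stand beside the 36.3% of all flanking genes without a test. In the naive pluripotency list 9 of 14 flanking genes had one (64.3%, 35.1 to 87.2), with 7.88 summits per Mb and a median of 1 a gene. Sox2 and Tbx3 had 12 each, Nr5a2, which encodes a nuclear receptor, 9 and Tfap2c 7. The primordial germ cell list had 8 of 12 (66.7%, 34.9 to 90.1), 6.28 per Mb and a median of 2 a gene. It shares Sox2 and Tfap2c, and it also held Prdm1 with 3 and Cxcr4, the receptor of migrating germ cells, with 2. Prdm1 encodes BLIMP1, a specifier of germ cells. In the list of BMP and SMAD genes 10 of 13 had one (76.9%, 46.2 to 95), with 4.38 per Mb and a median of 2 a gene. Bmp7 had 7, in the desert it shares with Tfap2c. The BMP-responsive homeobox genes Msx2 and Msx1 had 5 and 4, and the BMP antagonist Chrd had 2. The intervals of the pluripotency and germ cell lists include 36.3%. Those of the BMP, developmental transcription factor and neuronal adhesion lists lie above it, and that of the chemosensory list lies below it. These intervals treat genes as independent, which genes that share a desert are not. The 36.3% is not matched for desert length either. Where an interval lies is therefore a description and not a test of a list.

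For the other signalling, GATA and meiotic lists the intervals included 36.3% as well. Of WNT, FGF, TGF-beta and Notch genes 13 of 27 had a summit (48.1%, 28.7 to 68.1), 3.17 per Mb, with Hes1 at 16 over both its deserts, Tgfb2 at 4, Wnt7b at 3 and the Notch ligand Dll1 at 2. Of retinoic acid genes 5 of 12 did (41.7%, 15.2 to 72.3), 2.31 per Mb, with Meis1 at 5, Nrip1 at 2, and Cyp26a1, which encodes an RA-degrading enzyme, and Meis2 at 1 each. Of GATA factors and partners 4 of 8 did (50.0%, 15.7 to 84.3), 1.74 per Mb, with Gata3 at 5, Trps1 at 4, Runx1 at 2 and Zfpm2 at 1. Of meiotic prophase and oocyte genes 4 flanked a desert, and only Lhx8, an oocyte homeobox factor, had summits, 2 in 146 kb. Bmp15, Dazl and Ythdc2 had none in theirs.

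The larger lists went with different lengths of desert. Of developmental transcription factor genes 58 of 91 had a summit (63.7%, 53.0 to 73.6), with 2.21 per Mb over 63.4 Mb. Tshz1 had 9, Myc and Tcf4 7 each and Irx1 6. Of neuronal adhesion genes 36 of 57 had one (63.2%, 49.3 to 75.6), but with 0.483 per Mb over the 137 Mb of their deserts. Epha4, an ephrin receptor gene, had 6, Cdh8 and Lrrc4c 5 each and Cdh9 4, and of those of Lrrc4c 4 were the close run described above. In these lists the percentages were alike while the densities were not. Chemosensory genes, which are olfactory, vomeronasal and taste receptors, stood low by both, with 7 of 110 (6.36%, 2.60 to 12.7) and 0.501 per Mb. Tas2r134 had 2, and Olfr1324, Olfr161 and Olfr267 had 1 each.

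**Figure D5:**
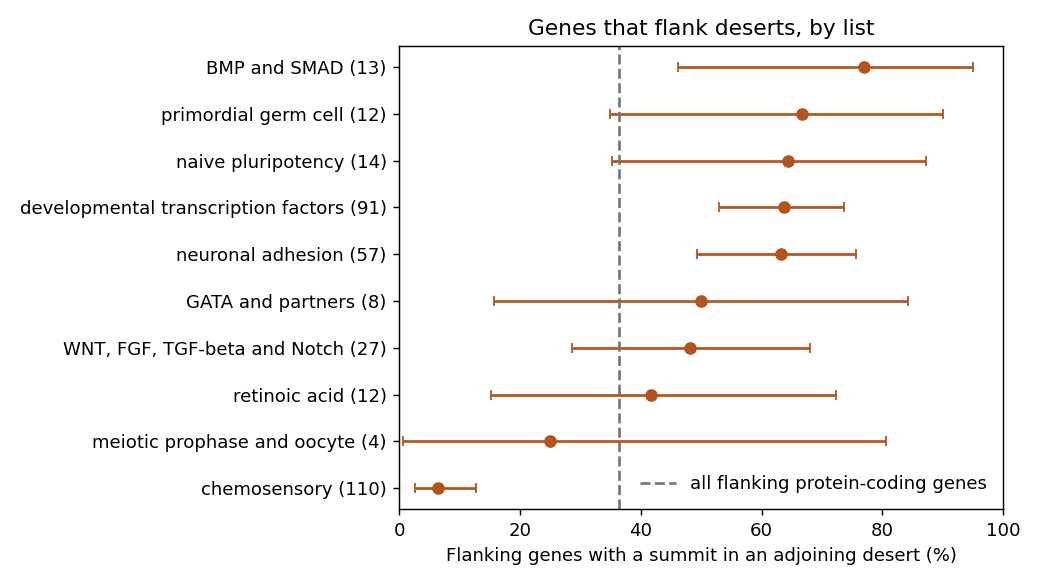
Percent of desert-flanking protein-coding genes with a summit in an adjoining desert for 10 gene lists, with exact 95% binomial intervals and the number of flanking genes in brackets, beside the 36.3% of all flanking genes (dashed line). BMP and SMAD genes stand highest at 76.9% and chemosensory genes lowest at 6.36%, and small lists have wide intervals.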

How the data were processed

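DNA bound by V5-tagged ZGLP1 was collected with a V5 antibody and sequenced, per the labels' protocols. Per the submitters' processing notes, the tools were MACS2 2.1.1.20160309, HOMER 4.9.1, Bowtie 1.1.2, bedtools, SAMtools 1.3, Picard 2.1.0, cutadapt 1.9.1 and Trim Galore 0.4.1, and the build was mm10. Their settings, the libraries and threshold behind the list and how peaks were joined are not given in the sources used here. The authors deposited 32927 positions, 1 base per summit, without score or height. Both coordinates of a summit are equal, so the counting may begin at 0 or 1 and a distance may be off by 1 base. Depth is unknown.

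Summits were set against 49554 genes (21631 protein-coding) on chromosomes 1 to 19 and X of the RefSeq table for GRCm38, which gives starts and ends without strand. Strand and the 300-base start windows came from RefSeq's promoter table for GRCm38.p6, matched by gene ID. Not every gene had a window, and no desert lncRNA window with a summit was on chromosome 18. The annotated span runs from the first to the last gene of a chromosome. It holds assembly gaps, since no genome was used. The members and gene lists were chosen with earlier results of these data known. The list symbol Meiosin was not matched. Named items follow a rule: the 10 deserts with most summits, the 5 densest of at least 200 kb with 5 or more, the 5 longest, the 10 farthest summits, the 2 on each side of the threshold, the 10 largest runs, the 10 noncoding genes with most summits, small RNA genes within 1 kb, and up to 4 genes per list. Ties were cut by chromosome and position or alphabetically. Shares carry exact (Clopper-Pearson) 95% binomial intervals and densities exact 95% Poisson intervals. No hypothesis test was made. The desert assignment was tested on simulated positions. Alternatives covered other distances, gene sets, merging and boundaries. The software was matplotlib 3.10.9, SciPy 1.17.1, pandas 2.3.3 and numpy 2.4.6 under Python 3.11.15.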

Additional observations from a re-analysis of the deposited data

How the results depend on the processing

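Of the 49 values recomputed under other settings, 24 stayed within 1.5 times the main count or within the main value's 95% interval. Leaving out protein-coding genes with Gm-number or Rik names gave 1994 desert summits, and leaving out the desert with most summits gave 1820. A distance of 25 kb gave 3064 desert summits, a share ratio of 0.212, 2.67 per Mb, 31.3% within 10 kb of another and 13.8% at a noncoding gene boundary. A distance of 100 kb gave 999, 0.102, 1.29 per Mb, 22.5% and 9.61%. A distance of 200 kb gave 434, 0.0608, 0.765 per Mb, 16.8% and 7.14%, with an X share of 0.922%, above the main 0.381%. Genes of every biotype left 361 desert summits and a ratio of 0.0673. Merging summits within 1 kb gave a ratio of 0.172 and 19.4% within 10 kb. Joining at 5 and 25 kb gave 18.4% and 37.3%. A boundary of 500 bases and of 5 kb gave 8.11% and 28.6%. Of deserts of at least 100 kb, 44.7% held a summit. Fewer or more bases met each limit by construction, and the ratio of shares stayed under 1 in every setting run. Without the 36 summits outside the annotated span, an alternative chosen after seeing the data, 23.4% lay within 10 kb of another.

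The planned letters around each summit and the planned ungapped lengths need a genome and were not run. No paired analysis was possible because the list names no library. Depth per library is unknown, so how many desert sites fell below the authors' threshold cannot be told.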
